A study of Bos taurus with 106 samples.

Results

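The livers of 4 dairy cows fed ad libitum before calving were compared with those of 4 cows fed a restricted amount, on the day after calving. The samples were chosen by the day and feeding labels, which gave 16 of the 106 arrays in the study and 8 of its 53 liver samples. All cows were Holsteins with a dry period of 65 days, and both groups had the same feed of moderate energy density, given as 1.6 Mcal per kg. Ad libitum cows (6886, 7050, 7161 and 7187) took in about 120% of the NRC requirement before calving, and restricted cows (6877, 6952, 7045 and 7105) about 80%. The energy density was not stated for 1 ad libitum array of day 1. Each liver RNA was hybridised with a reference made from other tissues on 2 arrays, once with liver in Cy5 and once with liver in Cy3, so that a cow counted as 1 sample. A value is the log2 ratio of liver over reference, centred on the median of its array and averaged over both dye orientations, and a difference is ad libitum minus restricted.

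In the days around calving the liver of a dairy cow takes up fatty acids released from body fat, makes glucose for milk lactose and secretes plasma proteins and lipoproteins. Secreted proteins enter the endoplasmic reticulum through a channel, lose their signal peptide, receive sugar chains and are folded there by chaperones and disulfide isomerases. How much a cow eats before calving can affect how much fat she mobilises afterwards, which is the setting of the feeding comparison. In bulk liver, fewer cells of a type and less RNA per cell cannot be told apart.

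The arrays carried 8208 cDNA elements, each spotted in a pair, and 8127 elements had values from both orientations in at least 3 cows of each group. Missing values made up 1.23% of the spots of these arrays. The hepatocyte markers that could be measured were high against the reference, which held no liver: RBP4, the retinol carrier, lay between 4.94 and 5.55 in ad libitum cows and between 5.30 and 5.96 in restricted cows. SLC10A1, the bile acid transporter of hepatocytes, lay between 3.24 and 4.05 in ad libitum cows and between 3.84 and 4.44 in restricted cows. Of 26 hepatocyte markers 4 were measured, and none had an unadjusted p under 0.05.

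No element differed between the diets after adjustment. With limma and Benjamini-Hochberg adjustment over 8127 elements, 0 were higher (0%) and 0 were lower (0%) in ad libitum cows at an adjusted p under 0.05, and the smallest adjusted p was 0.0891. At an unadjusted p under 0.05, 914 elements (11.2%) were higher and 410 (5.04%) were lower. The values of the groups did not overlap for 779 elements that were higher in ad libitum cows (9.59%) and for 281 that were lower (3.46%). In a fit of all 14 diet-by-day groups with cow as a random block, which borrows the spread of the other days, 711 of 8061 elements were higher (8.82%) and 154 were lower (1.91%) at an adjusted p under 0.05. The median residual SD of an element was 0.196 on day -30, 0.377 on day -14, 0.329 on day 1, 0.379 on day 14 and 0.207 on day 28. Array weights gave 624 higher and 354 lower. The count also depended on restricted cow 6877, since 409 elements were higher and 29 lower at that threshold when it was left out. The 281 lower elements without overlap became 370 to 786 when any 1 of the 8 cows was left out, and fewer cows make overlap less likely. The balance of directions depended on centring. The median difference over all elements was -0.09 with centring and -0.37 without it, and without centring 180 elements that did not overlap were higher and 1125 lower.

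Among the 12 elements with the smallest p that were higher in ad libitum cows were GFER, SPP1, CSH2, HK1, FABP5 and RAC1. GFER (element 597), a sulfhydryl oxidase of the mitochondrial intermembrane space, had values of 0.03, 0.06, 0.21 and 0.30 in ad libitum cows, against -0.50, -1.25, -0.90 and -0.82 in restricted cows. The groups did not overlap, and all ad libitum cows lay just above 0. The difference was 1.02 ± 0.20 (SE, unadjusted p = 0.000337, adjusted p = 0.0891).

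SPP1 (element 5895) encodes osteopontin, a secreted glycoprotein that bile duct cells and activated macrophages make. Its values were -0.71, -1.07, -0.52 and -0.49 in ad libitum cows, against -1.71, -2.58, -1.94 and -1.62 in restricted cows. All cows lay below 0, the median of the array, and the highest restricted cow lay below the lowest ad libitum cow. The difference was 1.26 ± 0.24 (SE, unadjusted p = 0.000355, adjusted p = 0.0891).

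FABP5 (element 1935), a cytosolic fatty acid binding protein, had values of -0.13, 0.17, 0.14 and 0.14 in ad libitum cows, against -0.70, -1.81, -1.26 and -0.76 in restricted cows, a difference of 1.21 ± 0.25 (SE). HK1 (element 4428), the hexokinase that starts glycolysis in most tissues other than the hepatocyte, had values of -0.81, -0.57, -0.32 and -0.36 in ad libitum cows, against -1.65, -1.86, -1.44 and -1.15 in restricted cows, a difference of 1.01 ± 0.21 (SE). Neither gene overlapped between the groups, and cow 6952 was the lowest restricted cow for both. RAC1 (element 7438), a small GTPase of the actin cytoskeleton, differed by 0.85 ± 0.18 (SE), with ad libitum cows between -0.38 and -0.12 and restricted cows between -1.29 and -0.86.

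The other members of the set were RBM42, VEGFB, COPG2, CDK5RAP2, FBXL6 and CENPS. The largest difference belonged to FBXL6, an F-box protein, with 0.12 ± 0.11 in ad libitum cows and -1.29 ± 0.69 in restricted cows (SD, n = 4 each). The 12 differences ran from 0.85 to 1.41, each with an adjusted p of 0.0891 by limma, and the groups did not overlap for any of them. In the fit of 14 groups 11 of the 12 passed, against 8.82% of all elements, and VEGFB, an endothelial growth factor, did not (adjusted p = 0.167). That fit holds the same day 1 differences that picked the 12. VEGFB was also unequal between the dyes, with a difference of 0.13 with liver in Cy3 and 2.17 with liver in Cy5. Restricted cow 6952 held the lowest value for 10 of the 12 elements and cow 7045 for the other 2.

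Where the array held another element for one of these genes, that element mostly lay near 0. The second GFER element differed by 0.01 ± 0.30 (SE), the second SPP1 element by 0.25 ± 0.44 (SE) and the second HK1 element by 0.07 ± 0.19 (SE). The other RAC1 elements were at -0.13 and -0.09, and the other FABP5 elements at 0.26, -0.16 and -0.03. CSH2, a placental lactogen of ruminants, was the exception, with 0.95 ± 0.18 (SE) for element 2776 and 1.20 ± 0.33 (SE) for element 1588, and its groups did not overlap for either.

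The same was counted over every gene with more than 1 tested element, 942 genes in all. Of the genes with an element that did not overlap and was higher in ad libitum cows, 170 had another tested element, and 11 of them (6.47%) had at least 2 that did not overlap in that direction. Of the 197 other elements 72 (36.5%) were above 0, against 39.1% of all tested elements. For elements that were lower in ad libitum cows the figures were 71 genes, 6 of them (8.45%) with at least 2 such elements, and 67 of 88 other elements (76.1%) below 0, against 60.9% of all.

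**Figure D1:**
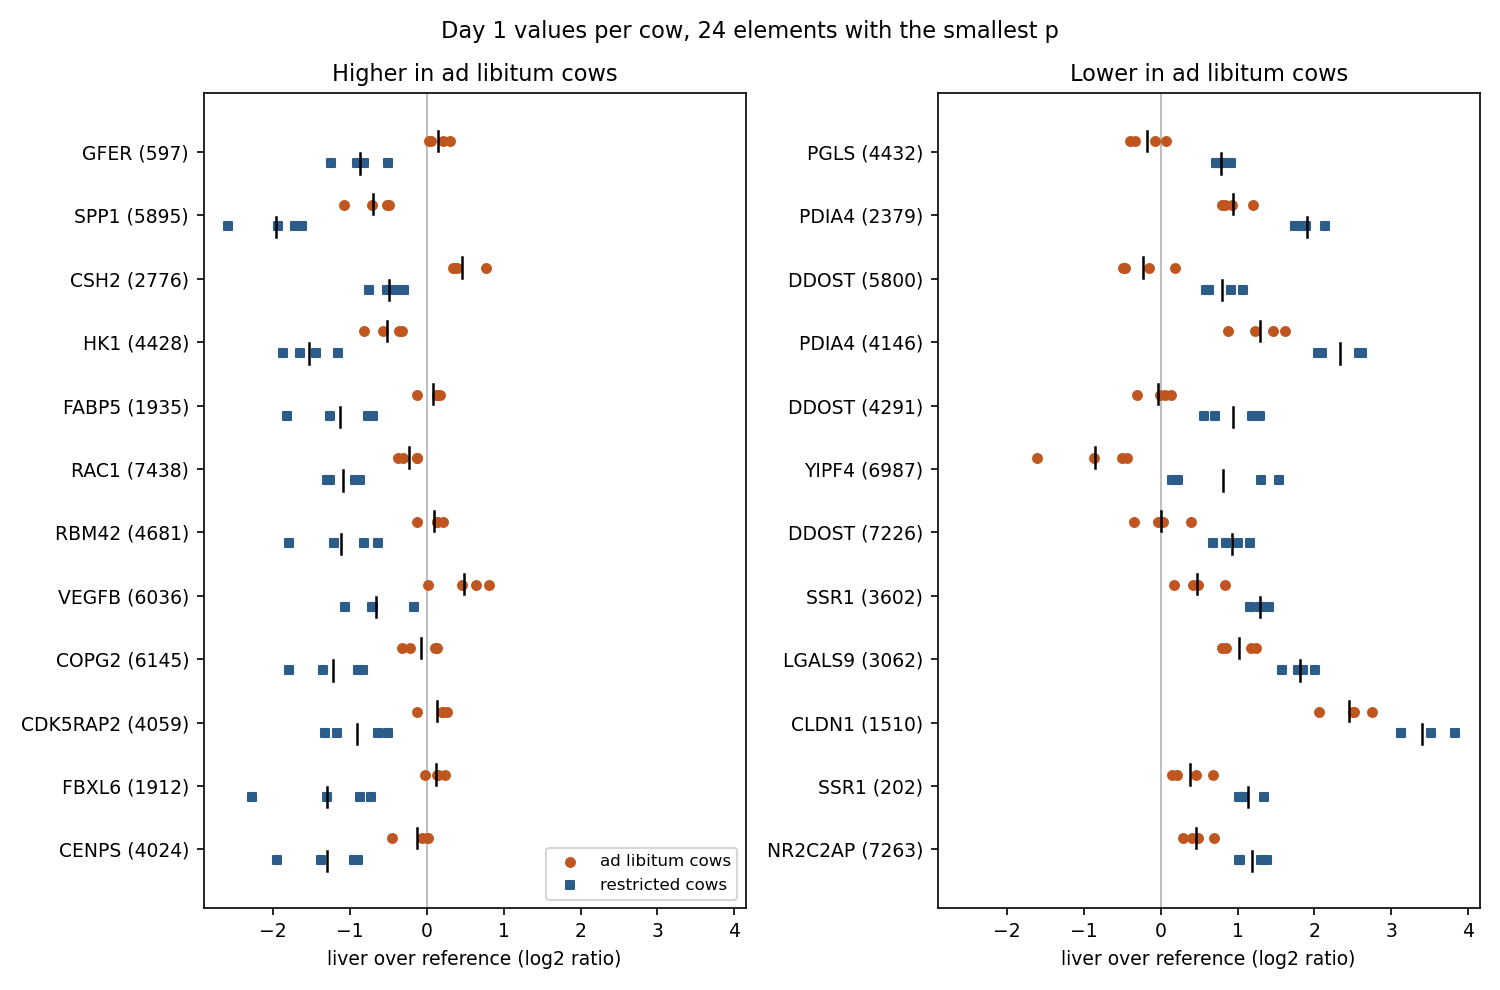
Log2 ratio of liver over reference on day 1 (horizontal axis) for the 12 elements with the smallest p in each direction, with element numbers in brackets. Circles are ad libitum cows, squares are restricted cows and black ticks are group means; the groups do not overlap for any of the 24 elements.

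Among the 12 elements with the smallest p that were lower in ad libitum cows, 7 belonged to 3 genes of the endoplasmic reticulum, PDIA4, DDOST and SSR1. PDIA4 (element 2379), a protein disulfide isomerase, had values of 0.92, 0.79, 1.20 and 0.84 in ad libitum cows, against 1.75, 1.84, 2.14 and 1.89 in restricted cows. No values overlapped, and the spread within each group was small, with an SD of 0.18 in ad libitum cows and 0.17 in restricted cows (n = 4 each). The difference was -0.97 ± 0.18 (SE, unadjusted p = 0.000228, adjusted p = 0.0891). The second PDIA4 element (4146) differed by -1.04 ± 0.23 (SE) and did not overlap either.

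DDOST (element 4291), a subunit of the oligosaccharyltransferase that attaches sugar chains, had values of 0.14, -0.30, 0.06 and -0.01 in ad libitum cows, against 0.57, 1.29, 1.19 and 0.71 in restricted cows. All ad libitum cows were near 0, the median of the array, and all restricted cows were above it. The difference was -0.97 ± 0.21 (SE, unadjusted p = 0.000956, adjusted p = 0.0891), and the other DDOST elements, 5800 and 7226, were at -1.02 ± 0.21 and -0.91 ± 0.21 (SE).

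SSR1 (element 202), a subunit of the translocon-associated protein complex, had values of 0.68, 0.22, 0.46 and 0.15 in ad libitum cows, against 1.34, 1.02, 1.09 and 1.08 in restricted cows, a difference of -0.75 ± 0.18 (SE). The other SSR1 elements, 3602 and 7573, were at -0.81 ± 0.19 and -0.79 ± 0.21 (SE). No element of PDIA4, DDOST or SSR1 overlapped between the groups, 8 elements in all.

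The other 5 genes with small p in this direction were PGLS, YIPF4, LGALS9, CLDN1 and NR2C2AP. PGLS, 6-phosphogluconolactonase of the pentose phosphate pathway, had values of 0.07, -0.39, -0.07 and -0.34 in ad libitum cows, against 0.73, 0.81, 0.91 and 0.72 in restricted cows. Its groups lay far apart, with a difference of -0.97 ± 0.18 (SE), and its second element differed by -0.62 ± 0.28 (SE). CLDN1, a tight junction protein of hepatocytes, was at 2.45 ± 0.29 in ad libitum cows and 3.40 ± 0.34 in restricted cows (SD, n = 4 each), with its second element at -0.69 ± 0.37 (SE). LGALS9, a galectin, and NR2C2AP differed by -0.79 ± 0.18 and -0.72 ± 0.18 (SE), and their second elements were nearer 0, at -0.19 and -0.16. YIPF4, a Golgi membrane protein, had the largest difference of the set, -1.66 ± 0.37 (SE), and it depended on the dye, with -0.51 for liver in Cy3 and -2.81 for liver in Cy5. In the fit of 14 groups, which holds the same day 1 differences, 10 of the 12 elements passed, against 1.91% of all elements. All 24 elements named in both directions had the same sign in both orientations. They were picked on the average of these orientations, which favours a shared sign.

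The list of endoplasmic reticulum folding and stress genes held 66 genes, of which 40 were measured. Their median difference was -0.40, against -0.09 for all elements. Of the 40, 35 lay below 0 and 5 above, against 60.9% of all elements below 0. At an unadjusted p under 0.05, 13 of the 40 were lower and 0 were higher in ad libitum cows, against 5.04% of all elements that were lower. Groups did not overlap for 7 of the 40, all among the 13, against 3.46% of all elements. In the fit of 14 groups 9 of the 40 passed as lower, against 1.91% of all elements. The list was singled out with these results known, so its counts are a description of the members.

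The members were sorted by the step of secretion they serve, also after their values were known. All 4 subunits of the translocon-associated complex, which sits beside the protein channel, were among the 13, with differences of -0.75 for SSR1, -0.69 for SSR2, -0.71 for SSR3 and -0.70 for SSR4. SSR3 had values of 0.77, 1.00, 1.24 and 1.08 in ad libitum cows, against 1.58, 1.96, 1.87 and 1.53 in restricted cows, with no overlap. A second SSR2 element was at -0.26 ± 0.18 (SE).

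Signal peptidase, the protease that removes the signal peptide, had 3 of its 4 measured members among the 13. SEC11C, a catalytic subunit, had values of 1.54, 1.51, 1.73 and 1.69 in ad libitum cows, against 2.25, 2.21, 2.13 and 2.39 in restricted cows, a difference of -0.63 ± 0.16 (SE). SPCS1 and SPCS2, its small subunits, differed by -0.57 ± 0.17 and -0.71 ± 0.26 (SE). The groups did not overlap for SEC11C and SPCS1, and did for SPCS2.

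Of 3 oligosaccharyltransferase members, DDOST and RPN2 were among the 13 and DAD1 was not. RPN2 differed by -0.64 ± 0.21 (SE), with ad libitum cows at 0.00, -0.15, 0.26 and 0.27 and restricted cows at 0.32, 1.12, 0.73 and 0.78. DAD1 was at -0.15 ± 0.17 (SE), with overlapping groups.

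The 4 disulfide isomerases all lay below 0, and PDIA4 and P4HB were among the 13. P4HB differed by -0.70 ± 0.31 (SE), PDIA6 by -0.60 ± 0.39 (SE) and PDIA3 by -0.38 ± 0.18 (SE). Among 8 chaperones and cofactors only DNAJB11, a cochaperone of the lumen, was among the 13, at -0.59 ± 0.21 (SE). HSP90B1, the HSP90 of the lumen, had the largest difference of the list, -1.04 ± 0.49 (SE, unadjusted p = 0.0593), with 1 ad libitum cow at -0.93 beside 3 cows between 1.07 and 1.30, and overlapping groups. CALR, calreticulin, was at -0.25 ± 0.18 (SE).

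The 5 members of the signal recognition particle and its receptor had a median of -0.25, and SRP14 was among the 13 at -0.45 ± 0.19 (SE). The 4 members of the translocation channel and its helpers had a median of -0.32 and none was among the 13; SEC61A1, the pore subunit, was at -0.02 ± 0.30 (SE). The 6 genes of the stress response and of degradation had a median of 0.02, with 3 below 0. They included DDIT3, a transcription factor induced under stress, at 0.18 ± 0.21 (SE), ATF4 at -0.52 ± 0.32 (SE) and EDEM1 at 0.12 ± 0.16 (SE).

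**Figure D2:**
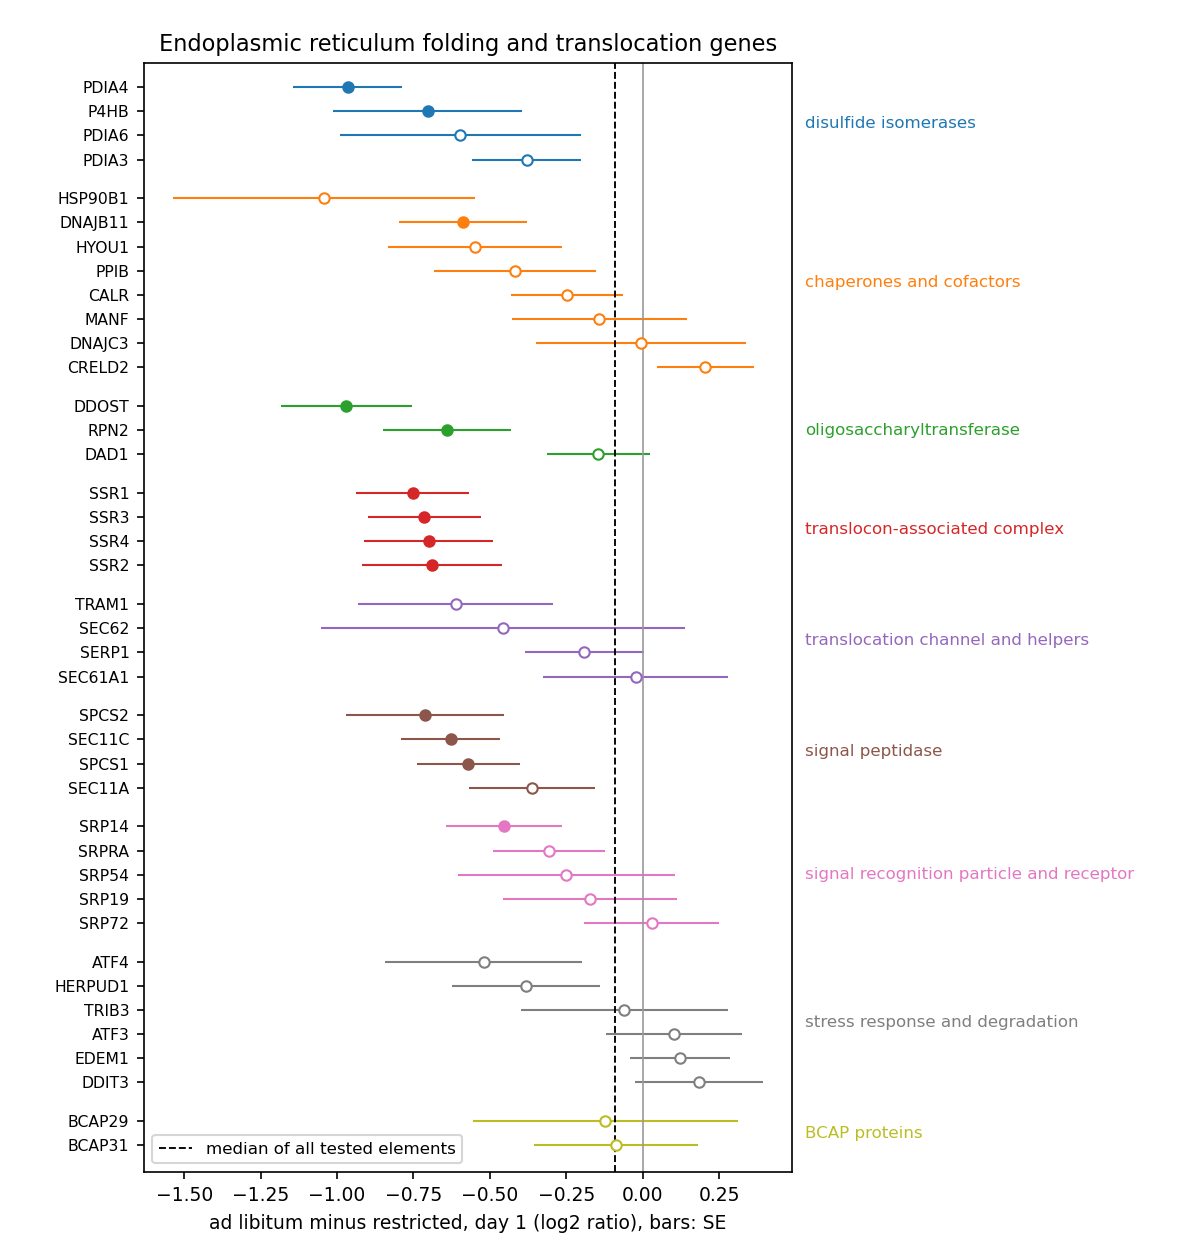
Difference on day 1 (ad libitum minus restricted, log2 ratio, horizontal axis) of the 40 measured genes of the endoplasmic reticulum list, sorted by role, with SE bars. Filled points had an unadjusted p under 0.05, 13 in all and all below 0; the dashed line is the median of all tested elements, -0.09.

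Summarised per cow, the median of the 40 genes was 0.47, 0.33, 0.44 and -0.01 in ad libitum cows, against 0.96, 0.64, 0.50 and 0.72 in restricted cows. The groups did not overlap in this summary, and restricted cow 7045 lay closest to the ad libitum cows. All 13 members were below 0 with liver in Cy3 and with liver in Cy5. The 13 were picked on the average of both orientations, which favours a shared sign. With 1 orientation alone, the count of members that did not overlap was 6 with liver in Cy3 and 1 with liver in Cy5. Of all elements, 1.27% were lower without overlap with liver in Cy3 and 3.02% with liver in Cy5, so the single member in Cy5 was no larger a share than in all elements. The count was 7 to 13 with a cow left out, against 4.55% to 9.67% of all elements, and it was highest without cows 7187 (12), 6952 (12) and 7045 (13). Without centring the list median was -0.68 while that of all elements was -0.37. Centring subtracts 1 value from all elements of an array, so the gap between these medians could hardly change.

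On other days the 13 genes gave different values. On day -14 the median of their differences was -0.49, and 11 of 13 lay below 0. On days -30, 14 and 28 the medians were 0.07, 0.02 and 0.02, with 5 of 13 below 0 on each of these days. Day -65, with 3 ad libitum and 4 restricted cows, was not compared by limma. PDIA4 then averaged 1.48 in ad libitum and 0.73 in restricted cows, and DDOST -0.36 and -0.71. SRP14 lay the other way, at -0.87 and -0.78, and the rest of the 13 had higher means in ad libitum cows. The change of the diet difference between days was tested on the difference within each cow. From day -14 to day 1, 0 of 8039 elements passed (0%), with 319 at an unadjusted p under 0.05 and a smallest adjusted p of 0.786. From day 1 to day 14, 0 of 8049 passed (0%), with 322 at an unadjusted p under 0.05 and a smallest adjusted p of 0.953, in both cases by limma. All 13 genes had a positive change from day 1 to day 14, 6 of them with an unadjusted p under 0.05 and none with an adjusted p below 0.999. That change shares the day 1 samples that picked the genes.

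PDIA4 averaged 0.69 ± 0.40 in ad libitum and 1.52 ± 0.63 in restricted cows on day -14 (SD, n = 4 each), and 0.83 ± 0.22 and 0.82 ± 0.40 on day 14. DDOST averaged -0.26 ± 0.27 in ad libitum and 0.53 ± 0.44 in restricted cows on day -14, and -0.34 ± 0.34 and -0.22 ± 0.32 on day 14. Both genes had their highest restricted mean on day 1, at 1.90 ± 0.17 for PDIA4 and 0.94 ± 0.35 for DDOST. SPP1 took another course: restricted means were -2.05 ± 0.88, -1.96 ± 0.43 and -1.82 ± 0.64 on days -14, 1 and 14, after -0.93 ± 0.23 on day -30 and before -0.69 ± 0.18 on day 28. In ad libitum cows the SPP1 mean stayed between -1.09 and -0.57 on all 7 days.

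**Figure D3:**
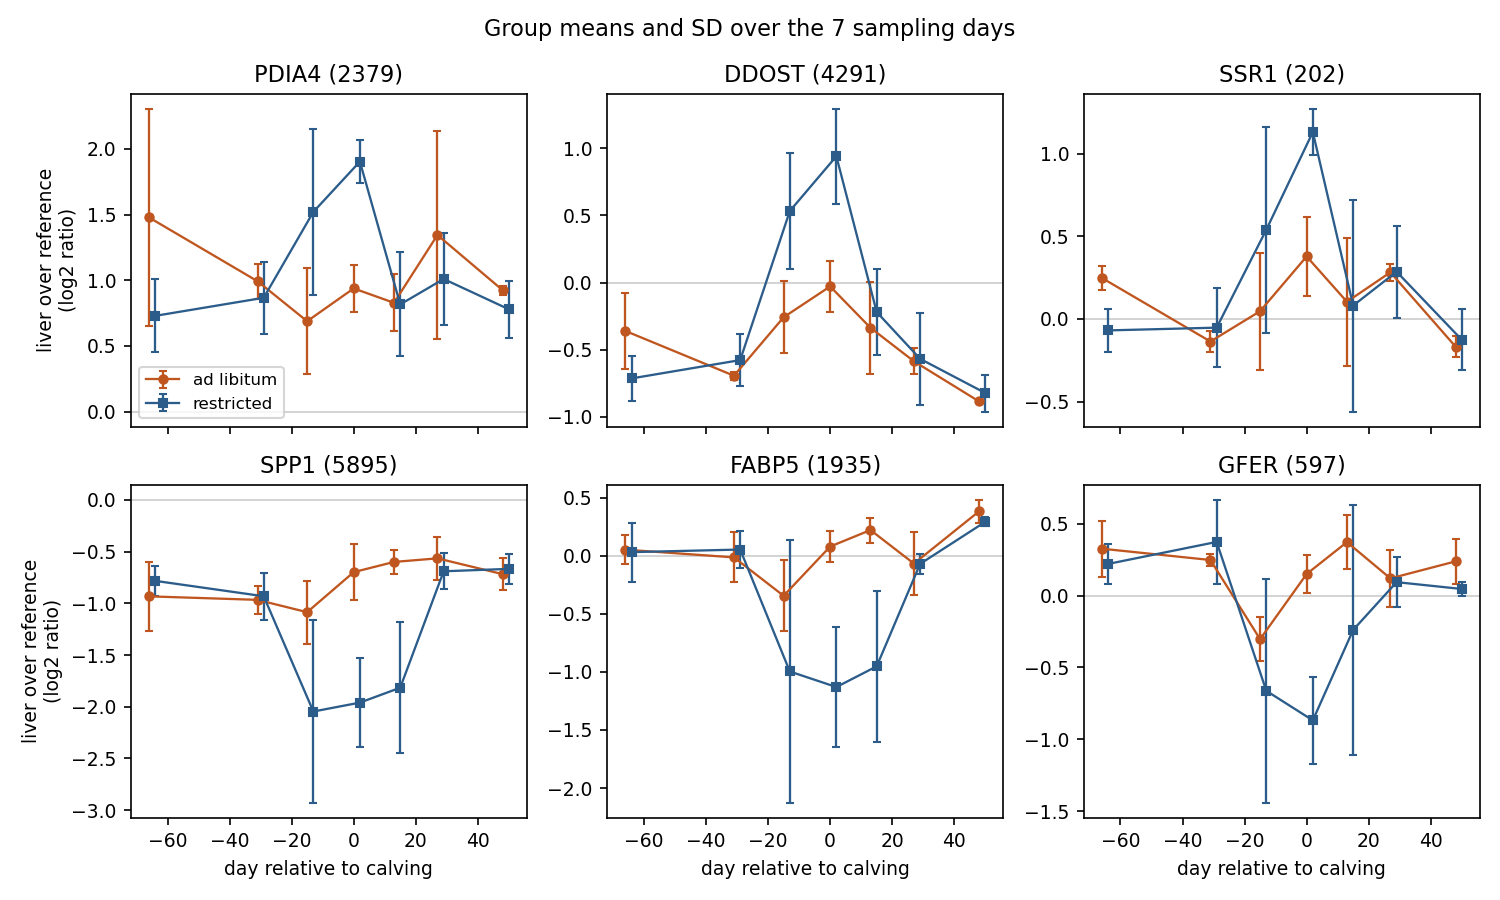
Mean log2 ratio of liver over reference (vertical axis) by day relative to calving (horizontal axis), with SD bars, for 3 genes lower and 3 genes higher in ad libitum cows on day 1. Circles are ad libitum cows (n = 4, 3 on day -65 and 2 on day 49) and squares are restricted cows (n = 4), nudged apart sideways; the restricted means of PDIA4 and DDOST peak on day 1, and those of SPP1, FABP5 and GFER are low on days -14 to 14.

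The elements that were higher in ad libitum cows were also followed on the other days, which the comparison of day 1 did not use. The 779 elements without overlap had a median level of 0.02 on the other days, with quartiles of -0.18 and 0.14, against quartiles of -0.41 and 0.46 for all tested elements. On day 1, whose values picked them, their median group mean was 0.00 in ad libitum cows and -0.97 in restricted cows. On day 14 the medians were 0.21 in ad libitum cows and -0.83 in restricted cows, and on day -14 they were -0.30 and -0.77. On day -30 they were -0.05 and 0.01. The difference was above 0 on day 14 for 745 of 777 elements, against 40.3% of all elements, and on day -14 for 737 of 777, against 50.3% of all. On day -30 it was above 0 for 196 of 779, against 49.6% of all, and on day 28 for 521 of 778, against 50.7% of all. Of the 281 elements lower without overlap on day 1, 83.5% of those with a value were below 0 on day -14, against 49.7% of all. On day 14 it was 68.7%, against 59.7% of all, and on day -30 it was 52.3%, against 50.4% of all. By limma, 0 elements passed on day -14 and 489 on day 14. Among 199 elements with a level over 2 on days -65, -30, 28 and 49, 0 were higher without overlap and 14 (7.04%) were lower. Of all elements 9.59% were higher and 3.46% lower without overlap. The median difference on day 1 was -0.36 for these 199 elements and -0.22 for 385 elements with a level of 1 to 2.

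Array measures moved with the groups on the same day. For elements within 0.25 of a centred value of 0 on days -65, -30, 28 and 49, the SD within a cow was taken on day 1. It was 0.34, 0.36, 0.32 and 0.48 in ad libitum cows, against 0.52, 0.96, 0.69 and 0.50 in restricted cows. These values did not overlap (exact permutation p = 0.0286, two-sided, the smallest that 4 against 4 allows; adjusted p = 0.0857 over 3 measures). Cow 6952 was the most spread, and it was also the lowest cow for 10 of the 12 elements with the smallest p that were higher in ad libitum cows. This SD comes from the same day 1 values as the gene differences. The 779 elements higher without overlap had quartiles of -0.18 and 0.14 on those other days, so many of them enter the SD. The SD is therefore not a separate observation. The correlation of the dye orientations over elements was 0.03, 0.52, 0.25 and 0.54 in ad libitum cows, against 0.61, 0.67, 0.40 and 0.53 in restricted cows. These values overlapped (exact permutation p = 0.171, adjusted p = 0.171), and cow 6886 had the lowest. Over all 8 cows the correlation averaged 0.44 on day 1, against 0.69 on day -30 and 0.67 on day 28. The SD over all elements was 0.86 ± 0.07 in ad libitum cows and 0.99 ± 0.08 in restricted cows (SD over cows, n = 4 each, exact permutation p = 0.0571, adjusted p = 0.0857). The part of these measures in the differences of single genes was not tested. Without ad libitum cows 6886 and 7161, whose orientations agreed least, 959 elements were higher and 663 (8.2%) lower without overlap, and 11 of the 40 endoplasmic reticulum genes were lower without overlap.

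**Figure D4:**
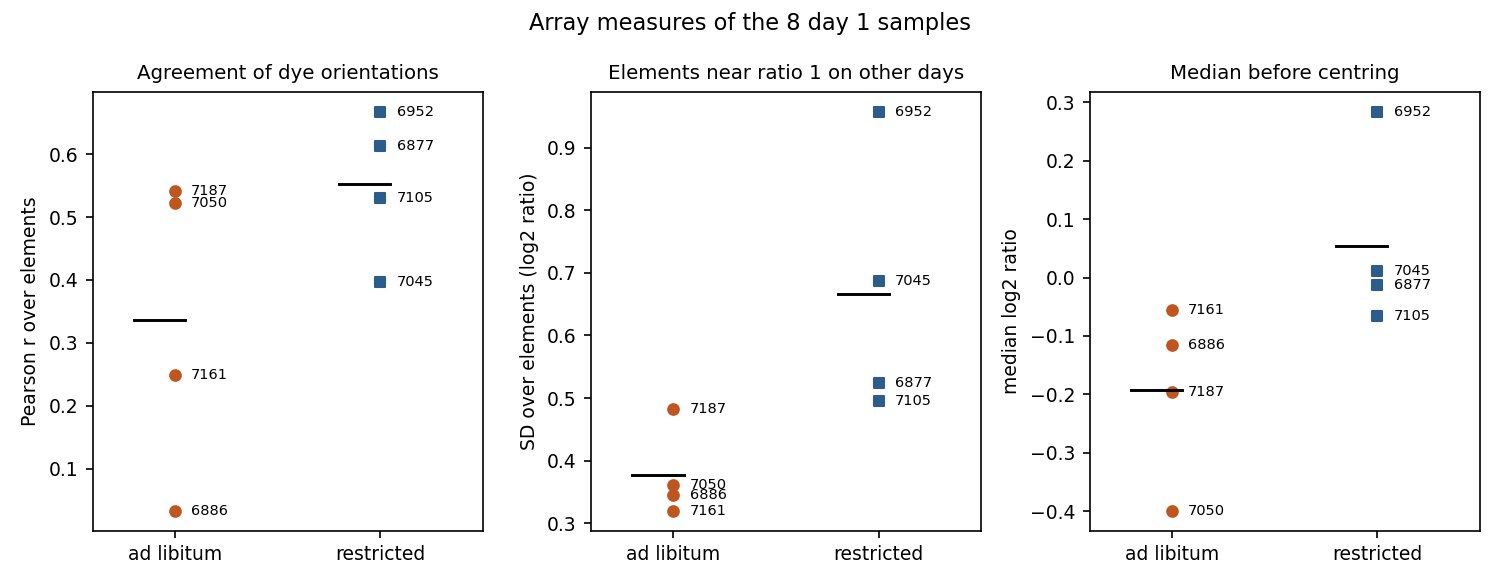
Measures of the 8 liver samples of day 1, with ad libitum cows left (circles), restricted cows right (squares) and group means as bars. The left panel holds the correlation of both dye orientations and the right panel the array median before centring. The middle panel holds the SD of elements near a centred value of 0 on days -65, -30, 28 and 49. The SD does not overlap between the groups (0.32 to 0.48 against 0.50 to 0.96), and the other measures do.

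Macrophage genes leaned the same way as the endoplasmic reticulum genes. Of 14 measured markers of Kupffer cells, the resident macrophages of the liver, 12 lay below 0, against 60.9% of all elements, with a median of -0.40. At an unadjusted p under 0.05, 6 were lower and 1 was higher in ad libitum cows, against 5.04% and 11.2% of all elements. The median level of the 14 markers on days -65, -30, 28 and 49 was 2.05. All elements with a level over 2 had a median difference of -0.36. C1QC, a chain of the first complement component, had values of 2.91, 2.69, 3.52 and 3.43 in ad libitum cows, against 4.11, 3.96, 3.94 and 3.88 in restricted cows. These values did not overlap, with a difference of -0.83 ± 0.22 (SE), and a second C1QC element was at -0.39 ± 0.24 (SE).

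C1QB differed by -0.61 ± 0.22 (SE), with a second element at -0.47 ± 0.25 (SE). AIF1, a macrophage calcium-binding protein, differed by -0.67 ± 0.23 (SE) and MSR1, a scavenger receptor, by -0.84 ± 0.30 (SE). LAPTM5, a lysosomal protein of blood cells, was at -0.51 ± 0.17 (SE) and FCGR1A, a receptor for IgG, at -0.50 ± 0.18 (SE), both without overlap. CD163, the haemoglobin scavenger receptor, went the other way at 0.82 ± 0.26 (SE). The defining markers CD68 and CD5L were at -0.05 ± 0.21 and -0.37 ± 0.22 (SE), so the list did not move as one. In the fit of 14 groups only FCGR1A passed (adjusted p = 0.048). After quantile normalization the list median was -0.25.

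The 11 measured complement genes all lay below 0, against 60.9% of all elements, with a median of -0.41. Their median level on days -65, -30, 28 and 49 was 3.76. All elements with a level over 2 had a median difference of -0.36. C1QC and C1QB, which are also macrophage markers, were the 2 complement genes with an unadjusted p under 0.05. Of all elements 5.04% were lower at this threshold. C1R, a protease of the first component, was at -0.52 ± 0.28 (SE), and C2 at -0.47 ± 0.24 (SE). The complement median depended on scaling, at -0.11 after quantile normalization and -0.18 with arrays scaled to a common spread.

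Markers of other cells were fewer. CD74, the invariant chain of antigen-presenting cells, had values of -0.04, 0.36, 0.06 and 0.44 in ad libitum cows, against 1.06, 0.97, 0.63 and 0.87 in restricted cows, with no overlap and a difference of -0.68 ± 0.19 (SE). Of 6 markers of T and NK cells 0 had an unadjusted p under 0.05, with a median of -0.22. Of 3 neutrophil markers FCGR3A was lower at an unadjusted p under 0.05, at -0.73 ± 0.26 (SE), against 5.04% of all elements. Both measured B cell markers, MZB1 and IGHM, lay below 0, at -0.67 ± 0.37 and -0.29 ± 0.37 (SE).

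Among 7 cholangiocyte markers SPP1 and EPCAM were higher at an unadjusted p under 0.05, EPCAM at 0.84 ± 0.20 (SE), both without overlap. KRT19 was at -0.38 ± 0.29 (SE) and the list median was 0.02. The second SPP1 element, given above, lay nearer 0. Of all elements 11.2% were higher and 5.04% lower at that threshold, and 9.59% were higher without overlap. Among 7 stellate cell and fibroblast markers only MYL9, a myosin light chain, had an unadjusted p under 0.05, at 1.22 ± 0.35 (SE). COL3A1, a fibrillar collagen, lay between -2.87 and -1.05 in ad libitum cows and spread from -3.26 to 0.90 in restricted cows. Among 7 endothelial markers TEK was at -0.81 ± 0.33 (SE) and KDR at 0.70 ± 0.27 (SE), but a second KDR element was at -0.45 ± 0.23 (SE). The part of these cells in the other differences was not tested.

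Ribosomal protein genes leaned below 0, while translation factors lay below 0 about as often as all elements, of which 60.9% did. Of 46 ribosomal protein genes 43 lay below 0, with a median of -0.29, and 5 (against 5.04% of all elements) were lower at an unadjusted p under 0.05. RPL7A differed by -0.67 ± 0.22 (SE) and RPL13A by -0.49 ± 0.18 (SE), both without overlap and both passing in the fit of 14 groups. Of 36 translation factors and tRNA synthetases 9 were higher and 3 lower at an unadjusted p under 0.05, with a median of -0.11 and 23 below 0. Of all elements 11.2% were higher and 5.04% lower at this threshold. EIF3F, a subunit of the initiation factor that binds the small ribosomal subunit, was highest at 1.31 ± 0.32 (SE), with ad libitum cows between -0.20 and 0.20 and restricted cows between -2.25 and -0.64. EIF2B2 was at 0.98 ± 0.24 (SE), EIF6 at 0.92 ± 0.27 (SE) and EIF3I at 0.80 ± 0.23 (SE), but a second EIF3I element was at -0.21 ± 0.24 (SE). The tRNA synthetases WARS1 and SARS1 lay the other way, at -0.85 ± 0.24 and -0.77 ± 0.24 (SE), and both passed in the fit of 14 groups.

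Genes of sugar breakdown went both ways. Of 16 genes of glycolysis and the pentose phosphate pathway 5 were higher and 0 lower at an unadjusted p under 0.05, against 11.2% and 5.04% of all elements. The list median was -0.17, and 10 of the 16 lay below 0, against 60.9% of all elements. PKM, the pyruvate kinase of tissues other than liver, had values of -1.38, -1.66, -0.89 and -0.98 in ad libitum cows, against -2.10, -2.92, -2.17 and -1.86 in restricted cows, a difference of 1.03 ± 0.27 (SE). Its values did not overlap, and those of RPIA (0.78 ± 0.23), PFKP (0.58 ± 0.18) and HK1 did not either, while PGK1 (0.44 ± 0.19, SE in all cases) overlapped. PGLS, described above as lower, belongs to the same pathway. The second HK1 element, given above, lay near 0.

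Fatty acid oxidation, the route that burns mobilised fat, had 16 measured genes and 0 with an unadjusted p under 0.05. Of the 16, 12 lay below 0, against 60.9% of all elements, with a median of -0.34. The median level of the 16 genes on days -65, -30, 28 and 49 was 2.29. All elements with a level over 2 had a median difference of -0.36. CPT1A, the gate for fatty acids into mitochondria, had values of 1.96, 2.31, 2.19 and 2.28 in ad libitum cows, against 2.67, 3.10, 2.25 and 2.47 in restricted cows. The groups overlapped slightly, with differences of -0.44 ± 0.21 and -0.32 ± 0.20 (SE) for the 2 elements (unadjusted p = 0.0651 and 0.135). ACSL1, which activates fatty acids, was at -0.04 ± 0.34 (SE), with a sign that depended on scaling. With array weights, which give less to noisy arrays, the median of the oxidation list was -0.05.

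In lipid synthesis 9 genes were measured. AGPAT1 and LPIN3, which act on the path to triglycerides, were higher at 0.70 ± 0.19 and 0.51 ± 0.19 (SE), and AGPAT2, an isozyme of AGPAT1, was lower at -0.78 ± 0.29 (SE). All 3 had no overlap between groups, and AGPAT1 and LPIN3 passed in the fit of 14 groups. SREBF1, a regulator of lipid synthesis, was at -0.63 ± 0.31 (SE, unadjusted p = 0.0634).

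PC, pyruvate carboxylase, which feeds gluconeogenesis, was at 0.46 ± 0.22 in ad libitum and 0.82 ± 0.54 in restricted cows (SD, n = 4 each), a difference of -0.36 ± 0.27 (SE, unadjusted p = 0.208). Of 11 genes of gluconeogenesis and pyruvate use only MDH2 had an unadjusted p under 0.05, at -0.51 ± 0.22 (SE), against 5.04% of all elements that were lower. Of 13 genes of the urea cycle and amino acid breakdown 11 lay below 0, against 60.9% of all elements. At that threshold 2 were lower and 1 was higher, against 5.04% and 11.2% of all elements. ASS1, of the urea cycle, differed by -0.52 ± 0.20 (SE) and GCSH, of glycine cleavage, by -1.01 ± 0.39 (SE). OAT, which makes ornithine into a proline precursor, was at 0.55 ± 0.24 (SE) and passed in the fit of 14 groups (adjusted p = 0.0257), where ASS1 did not (adjusted p = 0.152). In the growth hormone and insulin axis 2 of 19 genes were lower, ADIPOR2 at -0.54 ± 0.21 and GRB2 at -0.37 ± 0.17 (SE), against 5.04% of all elements, and the list median was -0.03.

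**Figure D5:**
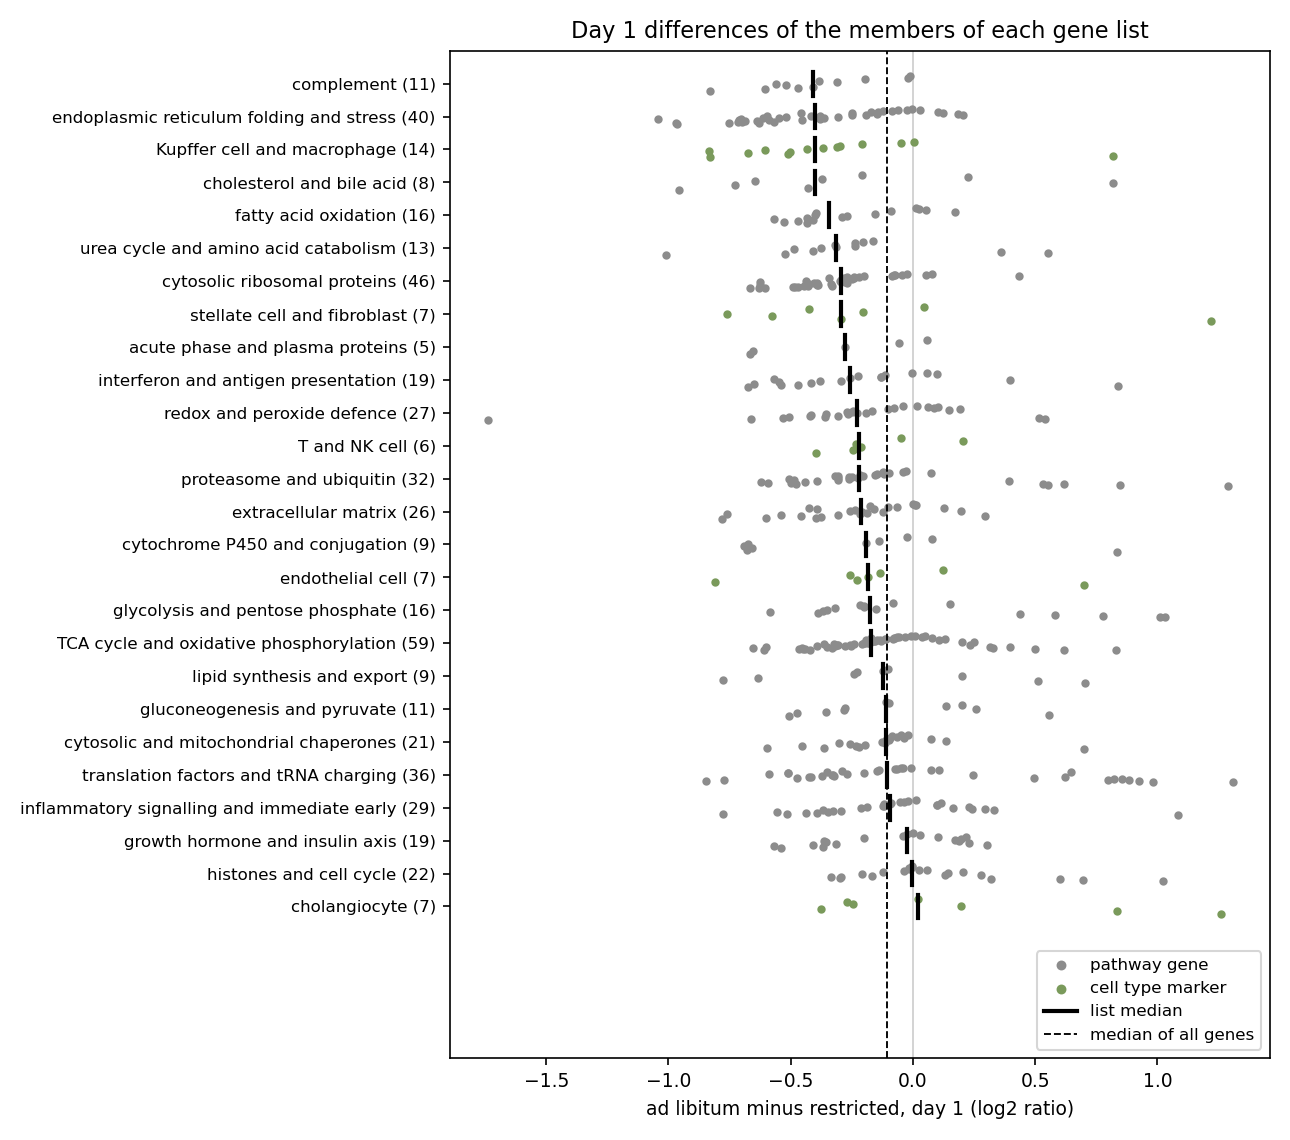
Difference on day 1 (ad libitum minus restricted, log2 ratio, horizontal axis) of every measured gene in the lists with at least 5 measured genes, with the number of genes in brackets. Grey points are pathway genes, green points are cell type markers and black bars are list medians; the complement, endoplasmic reticulum, Kupffer cell and cholesterol medians lie near -0.40, and the dashed line is the median of all genes, -0.11.

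A few other genes stood apart. GPX3, a secreted glutathione peroxidase, had values of 4.58, 4.61, 5.40 and 2.49 in ad libitum cows, against 5.84, 6.02, 6.02 and 6.16 in restricted cows. The restricted cows were close together and all above the ad libitum cows, of which 7187 was lowest. The difference was -1.74 ± 0.50 (SE, unadjusted p = 0.00523, adjusted p = 0.0916 by limma). It was -1.62 on day -30, -2.48 on day -14 and 0.12 on day 14.

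FN1, fibronectin, a plasma and matrix protein, was lower at both elements without overlap, at -0.78 ± 0.22 and -0.67 ± 0.18 (SE). FN1 was among 3 of 26 extracellular matrix genes with an unadjusted p under 0.05, all lower, against 5.04% of all elements. Of 19 interferon and antigen presentation genes 15 lay below 0, against 60.9% of all elements, with a median of -0.26. At an unadjusted p under 0.05, 4 were lower and 1 was higher, against 5.04% and 11.2% of all elements. The higher one was MX1, an interferon-induced GTPase, at 0.84 ± 0.26 (SE). CDK2, MCM4 and BUB3 were the 3 of 22 histone and cell cycle genes with an unadjusted p under 0.05, all higher, at 1.02 ± 0.24, 0.69 ± 0.17 and 0.60 ± 0.21 (SE), a share near the 11.2% of all elements. A second CDK2 element was at -0.25 ± 0.19 (SE) and a second BUB3 element at 0.01 ± 0.27 (SE).

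Because CSH2 had 2 elements of the same sign, the other placental genes on the array were read too, as a list added after its values were seen. Of 11 measured genes for placental lactogen, prolactin-related proteins and pregnancy-associated glycoproteins, CSH2 and PAG8 (0.87 ± 0.26, SE) were higher without overlap. Of all elements 9.59% were higher without overlap, and the list median was 0.22. The other PAG8 elements were at -0.05 ± 0.21 and 0.17 ± 0.17 (SE). The other 9 lay between -0.47 and 0.42, with 5 of them below 0. These gene families hold many similar copies, so an element may also bind transcripts of its relatives. The list median was -0.05 with liver in Cy5 alone and -0.06 without centring.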

How the data were processed

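The authors deposited a log2 ratio of Cy5 over Cy3 for each spot of each array. The log base and the lack of centring were read from the values. Spot images were quantified in GenePix, per the labels. Background correction, filters and normalization are not given in the sources used here. Signs were turned where the title gave liver in Cy3. In 1 array of day 1 the description of the reference named the same dye as the liver, and title and label were followed. The spots of an element were averaged, arrays were centred on their median, and both orientations of a cow were averaged. Array medians had been between -0.66 and 0.61, and spot pairs correlated at 0.80 to 0.93. Precision is limited by having 4 cows a group, and p-values measure the spread between these cows.

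Diets were compared with limma 3.58.1 in R 4.3.3 (lmFit, eBayes, two-sided, Benjamini-Hochberg, threshold 0.05) on 8127 elements, and fits with cow as a block used statmod 1.5.0. The scripts were tested on simulated data. A single symbol was available for 5598 of 8208 elements from the platform annotation, of which 5591 were found in a RefSeq table of assembly ARS-UCD2.0. A gene stands in its list with 1 element, the one with fewest missing values. Named were the 12 elements with the smallest p in each direction, up to 4 members with the smallest p of each of the lists with at least 5 measured genes, and PC, CPT1A, ACSL1 and SREBF1. All endoplasmic reticulum and macrophage genes at an unadjusted p under 0.05 were added, as were other genes after their values were seen (among them CALR, DAD1, SEC61A1, CD68 and the placental genes). The members and lists were chosen with earlier results of these data known. Alternatives covered centring, scaling, dye, weights, blocks, filters and each cow left out.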

Additional observations from a re-analysis of the deposited data

Results flagged for a closer look

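In 92 groups of 4 cows, formed by the 46 named elements and both diets, a single cow lay far from the other 3 in 4 cases, and chance alone gives this in about 1 in 20 groups. CSH2 (element 2776) was at 0.77 in ad libitum cow 7187, with the nearest ad libitum cow at 0.39, which widened the gap to the restricted cows. FABP5 (element 1935) was at -0.126 in ad libitum cow 6886, with the nearest at 0.135. CENPS (element 4024) was at -0.454 in the same cow, with the nearest at -0.0542. AIF1 (element 4408) was at 2.13 in restricted cow 7045, far below the other 3 restricted cows, and this cow alone made its groups overlap.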

How the results depend on the processing

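The count of 0 passing elements depended on the fit. The fit of 14 groups with cow as replicate block, in which the cow numbers pair samples across days, gave 711 higher and 154 lower elements, and the same block over 6 groups of days -14, 1 and 14 gave 0 and 0. Array weights gave 624 and 354, and both arrays in the fit with a dye term gave 496 and 29. Leaving out a cow gave 0 to 409 higher and 0 to 29 lower, with only restricted cow 6877 giving any. The 779 higher elements without overlap became 180 without centring, 328 without values whose orientations differed by over 1, and 805 to 1062 with a cow left out. The 281 lower ones became 104 with liver in Cy3 alone, 1125 without centring, and 663 without cows 6886 and 7161 (a setting chosen after seeing the data). With a cow left out they became 370 to 786. The counts were 449 without 6886, 399 without 7050, 370 without 7161 and 786 without 7187. They were 478 without 6877, 400 without 6952, 497 without 7045 and 469 without 7105. Fewer cows make overlap less likely. The cause of the other shifts was not tested. Of 46 named elements in 23 alternatives, ACSL1 was the only one to change sign, from -0.04 to 0.29 with array weights, 0.285 with orientation agreement as a covariate, 0.282 after quantile normalization, 0.153 after scaling and -0.285 to 0.234 with a cow left out. A value was lost for 20 of the 46 where orientations had to agree within 1. The change of the diet difference between days passed for 0 elements in each alternative run, and the difference in orientation agreement was -0.22 by Pearson and -0.27 by Spearman correlation.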
